A study of Mus musculus with 12 samples.

Results

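The genes described here are 42 interferon-stimulated genes, the set of antiviral and immune genes that cells switch on when they sense interferon. They come from a named list, not from a cut on measured values, but the list was chosen with earlier results of these data known. All 42 were found among the 36439 genes counted in each library. The list holds the STAT2 and IRF factors that carry the interferon signal, the ISG15, IFIT, OAS and Mx families, sensors of viral nucleic acid, interferon-inducible GTPases, the PARP9-DTX3L group and 10 other antiviral effectors. Lewis lung carcinoma, a transplantable mouse lung tumour, was grown under the skin of C57BL/6 mice, and RNA of its macrophages (TAMs, tumour-associated macrophages) was sequenced in 4 groups of 3 libraries. MRC1+ TAMs and CD11c+ TAMs were sorted as F4/80+MRC1+ and F4/80+CD11c+ cells. F4/80 is a macrophage surface protein, MRC1 is the mannose receptor and CD11c is an integrin chain also carried by dendritic cells. The other two groups were F4/80+ TAMs overexpressing the microRNA miR-511-3p and F4/80+ TAMs overexpressing a mutated miR-511-3p, the group they are compared with. Names of the libraries in both overexpression groups carry the prefix SFFV, which the labels do not spell out, and these cells were not separated by MRC1 or CD11c. The labels state no age or sex and no number of tumours per library. They also do not say that replicates are separate mice, so a p-value here reflects the spread of 3 libraries a group, part of which may be technical.

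Between 10824918 and 27890433 reads were counted in genes per library. The share of reads assigned to no counted feature was 19.7% to 26.6% in sorted and 7.64% to 10.4% in overexpression libraries. Levels of the 2 experiments are therefore given side by side and were not tested against each other. Whether these reads lay inside or outside genes is not known here. The interferon-stimulated gene with the fewest reads was Mx2 in every group, with 472 to 586 reads over 3 libraries, and the one with the most was Rnf213, with 39404 to 61942. The 8 macrophage markers, of which Fcgr1 is also on a list of interferon-induced genes used here, were detected in every library, with summed levels of 4376 to 6439 CPM (reads of a gene scaled to library size) in the sorted libraries and 8053 to 9240.4 CPM in the overexpression libraries.

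Type I interferons bind a receptor made of IFNAR1 and IFNAR2, whose kinases JAK1 and TYK2 phosphorylate STAT2. With IRF9, STAT2 is part of the factor ISGF3, which binds the interferon-stimulated response element (ISRE) in the promoters of interferon-stimulated genes. Interferon gamma signals through another receptor, its response acts through the gamma-activated sequence (GAS), and several GTPase genes respond mainly to it. In macrophages many of these genes are transcribed at a low basal level and are raised further by infection, nucleic acid or interferon itself.

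The letters of the response element were searched in promoters from RefSeq on build GRCm38.p6, each running from 250 bases before to 50 bases after a start site. A promoter was available for 34 of the 42 genes. An ISRE core is GAAA and a further GAAA with 2 bases of any kind between them, on either strand. It was matched to 19 of the 34 genes (55.9%), against 1079 of 27025 genes with a promoter (3.99%). The 19 include Oasl2, whose only cores lay in a promoter on the minus strand of chromosome 5. The gene annotation places Oasl2 on the plus strand, so these cores are likely those of another gene. A GAS core, TTCNNNGAA, was present in 8 of the 34 genes (23.5%), against 2582 of 27025 genes (9.55%). Both searches used all promoters of a gene, and in 1 gene, Bst2, an ISRE and a GAS core overlapped. By family, the ISRE core was found in 5 of 6 GTPase genes and 3 of 4 nucleic acid sensors. It was also found in Oas1a, Oas1g and Oas3, of 5 OAS genes with a promoter, and in 3 of 10 other effectors. A match describes these letters only, and no binding was measured.

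The windows of 8 genes show how alike these elements are across families and how they differ in number of cores; capitals mark the cores, and windows read 5′ to 3′ on the gene's strand.
Stat2: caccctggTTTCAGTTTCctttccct
Isg15: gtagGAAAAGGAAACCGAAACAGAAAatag
Ifit1: agtctcagTTTCAGTTTCtcactgct
Oas1a: ttctcggGAAATGGAAACTGAAAatctact
Oas1g: ttctcggGAAATGGAAACTGAAAatctact
Oas3: agggaggaGAAAACGAAAgtgaaggg
Gbp2: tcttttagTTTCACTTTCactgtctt
Bst2: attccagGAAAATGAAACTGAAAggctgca

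The Isg15 window (chr4:156200871-156200900, minus strand) held 3 overlapping cores between 78 and 57 bases before the start site. Oas1a (chr5:120907523-120907552, minus strand) and its neighbour Oas1g (chr5:120887609-120887638, minus strand) had the same 30 letters, with 2 overlapping cores that end just before the start site. Bst2 (chr8:71537580-71537609, minus strand) also held 2 overlapping cores. Stat2 (chr10:128270268-128270293, plus strand), Oas3 (chr5:120777717-120777742, minus strand) and Gbp2 (chr3:142620596-142620621, plus strand) held 1 core each in the window shown. The Ifit1 window (chr19:34640796-34640821, plus strand) is the nearer of a pair in that promoter.

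The first comparison asked how the interferon-stimulated genes differ between the MRC1+ and the CD11c+ TAMs. They were lower in MRC1+ TAMs as a group. Of the 42, 25 (59.5%) were called lower and none higher by edgeR's quasi-likelihood test at a Benjamini-Hochberg adjusted p under 0.05, against 9.71% of the 15622 genes tested that were called lower, 6.91% called higher and 16.6% called in either direction. All 42 had a log2 fold change (MRC1+ minus CD11c+) below 0, from -1.09 to -0.03, with a median of -0.54 against 0.01 over all genes tested. In 31 of the 42 every MRC1+ library lay below every CD11c+ library, which held for 19.9% of all genes tested, and the groups were apart in either direction for 38.4%. All 42 passed the filter on low counts. In bulk RNA, fewer cells of a type and less RNA per cell cannot be told apart.

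Single libraries moved this count more than its direction. It was 7 without the second and 6 without the third MRC1+ library, 9 without the second CD11c+ library, 16 without the third one and 36 without the first one, in fits where the share of all genes called lower was 5.43%, 5.60%, 6.00%, 6.70% and 14.8%. The median log2 fold change stayed between -0.63 and -0.47 in all 6 fits that left out a library. Sp100, Oas3, Oasl2, Mx1 and Rnf213 were called lower in all 14 alternative fits, and the other 20 called genes lost their call without at least 1 library.

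**Figure D1:**
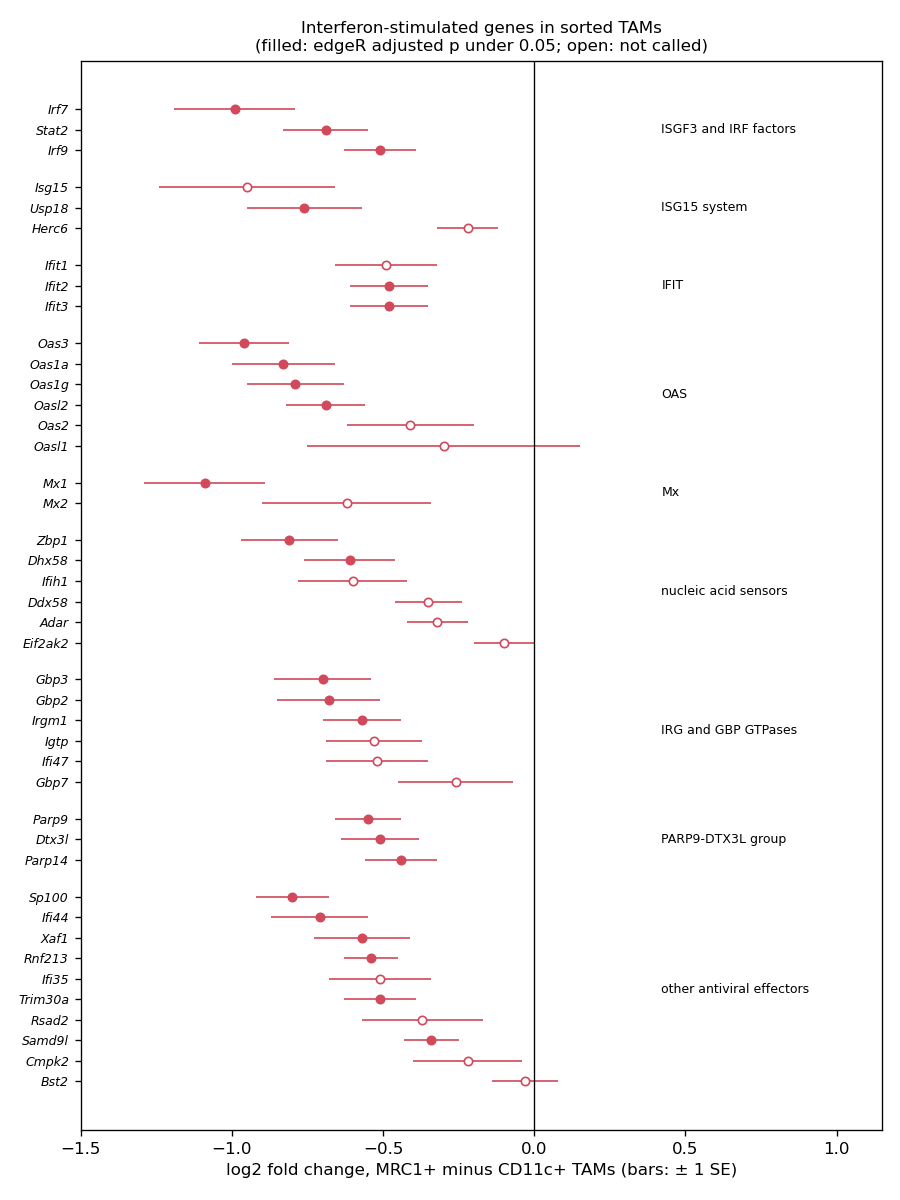
Log2 fold change of each of the 42 genes, MRC1+ minus CD11c+ TAMs (horizontal axis), by family, with bars of 1 standard error on either side; filled points were called by edgeR and open points were not. Every point lies left of 0, from Mx1 at -1.09 to Bst2 at -0.03, and the 25 filled points occur in every family.

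The 3 signal-carrying factors were all lower in MRC1+ TAMs, with a median log2 fold change of -0.69. Irf7 (ENSMUSG00000025498), the IRF that amplifies type I interferon production, stood at 55.9, 52.0 and 51.0 CPM in MRC1+ replicates 1 to 3 and at 69.6, 126 and 120.4 CPM in CD11c+ replicates 1 to 3. The groups did not overlap, the first CD11c+ library was the nearest to the MRC1+ libraries, and the log2 fold change was -0.99 ± 0.20 (SE), 1.98-fold lower (edgeR adjusted p = 0.0144). Stat2, the ISGF3 subunit that activates transcription, stood at 43.3, 49.0 and 43.1 CPM in MRC1+ and at 60.9, 88.4 and 68.8 CPM in CD11c+ libraries. Its log2 fold change was -0.69 ± 0.14 without overlap (edgeR adjusted p = 0.0143). Irf9, the DNA-binding subunit of ISGF3, stood at 72.2, 63.2 and 57.2 CPM against 79.4, 100.2 and 94.1 CPM. The groups did not overlap, and its log2 fold change was -0.51 ± 0.12 (edgeR adjusted p = 0.0263).

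ISG15 is a ubiquitin-like protein that is attached to other proteins during an interferon response. Isg15 stood at 14.7, 16.0 and 20.0 CPM in MRC1+ and at 19.4, 32.1 and 47.6 CPM in CD11c+ libraries. The first CD11c+ library lay below the third MRC1+ library, so the groups overlapped, and a log2 fold change of -0.95 ± 0.29 was not called (edgeR adjusted p = 0.0597). With the replicate number as a block, the edgeR adjusted p of Isg15 was 0.0163, within a range of 0.00193 to 0.166 over its alternatives. Usp18, the protease that removes ISG15 and dampens IFNAR signalling, stood at 26.7, 19.5 and 18.8 CPM against 28.6, 38.1 and 43.8 CPM. It was 1.69-fold lower without overlap, at a log2 fold change of -0.76 ± 0.19 (edgeR adjusted p = 0.0297; 0.0552 with the block and 0.00211 to 0.105 over its alternatives). Herc6, the mouse ligase that attaches ISG15, stood at 79.2, 66.8 and 62.2 CPM against 80.6, 82.4 and 79.6 CPM. These groups did not overlap, but the first MRC1+ library nearly touched the CD11c+ libraries, and the log2 fold change of -0.22 ± 0.10 was not called (edgeR adjusted p = 0.178).

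The IFIT proteins bind viral RNA ends and block its translation. Ifit2 stood at 165, 133 and 138 CPM in MRC1+ and at 172, 221 and 216 CPM in CD11c+ libraries, without overlap. Its log2 fold change was -0.48 ± 0.13 (edgeR adjusted p = 0.0373; 0.0619 with the block and 0.0045 to 0.237 over its alternatives). Ifit3, a partner of IFIT1, stood at 40.5, 32.0 and 32.7 CPM against 43.1, 53.2 and 50.2 CPM, also without overlap. Its log2 fold change was -0.48 ± 0.13 (edgeR adjusted p = 0.0359; 0.0597 with the block and 0.00848 to 0.296 over its alternatives), and reads may be shared with its near copy Ifit3b. Ifit1, whose promoter holds 2 separate ISRE cores, stood at 50.8, 47.8 and 55.1 CPM against 53.5, 72.8 and 90.1 CPM. The first CD11c+ library fell inside the MRC1+ range, and the log2 fold change of -0.49 ± 0.17 was not called (edgeR adjusted p = 0.0916).

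The OAS enzymes make the short oligoadenylates that activate RNase L, which cleaves RNA in infected cells. Of 6 members, 4 were called lower in MRC1+ TAMs. Oas3 (ENSMUSG00000032661) stood at 33.0, 31.1 and 31.7 CPM in MRC1+ and at 47.7, 72.2 and 67.4 CPM in CD11c+ libraries. The MRC1+ libraries were nearly level with each other and all below the CD11c+ libraries, with a log2 fold change of -0.96 ± 0.15, 1.95-fold lower (edgeR adjusted p = 0.00412). Oasl2 (ENSMUSG00000029561), an OAS-like protein, stood at 48.2, 49.0 and 47.4 CPM against 63.2, 89.8 and 81.1 CPM. The groups did not overlap, and its log2 fold change was -0.69 ± 0.13 (edgeR adjusted p = 0.00906). Oas1a stood at 47.0, 40.8 and 42.1 CPM against 57.3, 80.9 and 93.6 CPM, a log2 fold change of -0.83 ± 0.17 (edgeR adjusted p = 0.0136). Oas1g stood at 21.3, 17.7 and 20.0 CPM against 26.2, 38.2 and 38.3 CPM, a log2 fold change of -0.79 ± 0.16 (edgeR adjusted p = 0.0136). Neither gene's groups overlapped. As near-identical copies they may share reads, so these are not 2 independent values. Oas2 (-0.41 ± 0.21) and Oasl1 (-0.30 ± 0.45) were not called, and both had overlapping groups.

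Mx proteins are dynamin-like GTPases that block viral replication, and C57BL/6 mice carry a defective Mx1 allele, so its transcript is read here only as a marker of the pathway. Mx1 (ENSMUSG00000000386) had the largest fold change of the 42 genes. It stood at 34.2, 32.4 and 24.2 CPM in MRC1+ and at 46.7, 78.3 and 69.4 CPM in CD11c+ libraries. The groups did not overlap, and the log2 fold change was -1.09 ± 0.20, 2.13-fold lower (edgeR adjusted p = 0.00944). Mx2 stood at 8.44, 8.28 and 9.66 CPM against 7.92, 14.7 and 18.4 CPM. The lowest library of the 6 was the first CD11c+ library, and the log2 fold change of -0.62 ± 0.28 was not called (edgeR adjusted p = 0.157).

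Of the 6 nucleic acid sensors, 2 were called lower in MRC1+ TAMs. Zbp1, a sensor of Z-form nucleic acid that can start necroptosis, stood at 21.1, 21.6 and 18.5 CPM in MRC1+ and at 28.1, 43.8 and 35.7 CPM in CD11c+ libraries. It was 1.76-fold lower without overlap, at a log2 fold change of -0.81 ± 0.16 (edgeR adjusted p = 0.0124). Dhx58, the RIG-I-like receptor LGP2, stood at 33.7, 33.9 and 32.1 CPM against 39.1, 58.3 and 55.6 CPM. It did not overlap either, at -0.61 ± 0.15 (edgeR adjusted p = 0.0263). Ifih1, which encodes the double-stranded RNA sensor MDA5, stood at 95.6, 106 and 119 CPM against 119, 175 and 195 CPM. The third MRC1+ and the first CD11c+ library met, and the log2 fold change of -0.60 ± 0.18 was not called (edgeR adjusted p = 0.0527; 0.0145 with the block and 0.0013 to 0.152 over its alternatives). Ddx58, which encodes RIG-I, stood at 95.3, 100.3 and 91.8 CPM against 106, 139 and 123 CPM. It did not overlap and was not called, at -0.35 ± 0.11 (edgeR adjusted p = 0.0639). The RNA editor Adar (-0.32 ± 0.10; edgeR adjusted p = 0.0753, with 0.046 under the block and 0.0113 to 0.274 over its alternatives) and the kinase gene Eif2ak2 (-0.10 ± 0.10), which encodes PKR, were not called. In the annotation used here 16.8% of the exon bases of Adar overlap Chrnb2, and the counting mode is not given.

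The immunity-related GTPases (IRG) and guanylate-binding proteins (GBP) attack the vacuoles of intracellular microbes. Of 6 members, 3 were called lower in MRC1+ TAMs. Gbp3 stood at 84.0, 71.2 and 58.0 CPM in MRC1+ and at 121, 129 and 95.5 CPM in CD11c+ libraries, and Gbp2 stood at 363, 326 and 246 CPM against 567, 527 and 408 CPM. Both fell without overlap, Gbp3 with a log2 fold change of -0.70 ± 0.16 (edgeR adjusted p = 0.0211) and Gbp2 with -0.68 ± 0.17 (edgeR adjusted p = 0.0306). In both genes the third library was the lowest of its group in MRC1+ and in CD11c+ TAMs. Irgm1, a regulator of the other GTPases, stood at 99.2, 97.4 and 77.9 CPM against 124, 156 and 127 CPM. Its log2 fold change was -0.57 ± 0.13 without overlap (edgeR adjusted p = 0.0216). Igtp, also called Irgm3, stood at 60.5, 59.4 and 42.8 CPM against 72.1, 91.9 and 71.6 CPM. It did not overlap and missed the threshold, at -0.53 ± 0.16 (edgeR adjusted p = 0.0529; 0.0233 with the block and 0.0143 to 0.157 over its alternatives). Ifi47 had nearly the same value, -0.52 ± 0.17 (edgeR adjusted p = 0.0709; 0.0279 with the block and 0.0236 to 0.201 over its alternatives). Gbp7, at -0.26 ± 0.19, was not called. Gbp genes are close relatives, and reads may be split among them.

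PARP9 and DTX3L form a complex that modifies proteins after interferon, and PARP14 is a related ADP-ribosyltransferase. All 3 genes were lower in MRC1+ TAMs. Parp9 stood at 106, 97.3 and 87.1 CPM against 131, 160.3 and 136 CPM, a log2 fold change of -0.55 ± 0.11 (edgeR adjusted p = 0.013). Dtx3l stood at 98.0, 88.6 and 73.6 CPM against 130.0, 134 and 106 CPM, at -0.51 ± 0.13 (edgeR adjusted p = 0.0348). Parp14 stood at 286, 288 and 272 CPM against 321, 437 and 389.8 CPM, at -0.44 ± 0.12 (edgeR adjusted p = 0.0427). None of the 3 overlapped between groups. Parp9 and Dtx3l are neighbours whose transcripts overlap in 9.4% and 8% of their exon bases, and reads there cannot be told apart without strand.

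Of the 10 other effectors, 6 were called lower. Sp100 (ENSMUSG00000026222), a component of PML nuclear bodies, had the lowest p of the 42 genes. It stood at 75.0, 66.7 and 67.7 CPM in MRC1+ and at 102, 137 and 127 CPM in CD11c+ libraries. The groups were well apart, with a log2 fold change of -0.80 ± 0.12, 1.74-fold lower (edgeR adjusted p = 0.00372). Rnf213 (ENSMUSG00000070327), a giant ubiquitin ligase, stood at 734, 745 and 716 CPM against 1040.1, 1139.8 and 1024 CPM. Its log2 fold change was -0.54 ± 0.09 without overlap (edgeR adjusted p = 0.00577). Trim30a, a TRIM-family regulator of inflammatory signalling, stood at 194, 194 and 169 CPM against 236, 305 and 257 CPM, at -0.51 ± 0.12 (edgeR adjusted p = 0.0213). Ifi44 stood at 12.5, 9.04 and 9.78 CPM against 14.6, 18.9 and 17.7 CPM, at -0.71 ± 0.16 (edgeR adjusted p = 0.0223). Neither gene's groups overlapped. Xaf1 (-0.57 ± 0.16) and Samd9l (-0.34 ± 0.09) were the other 2 called genes. Ifi35 (-0.51 ± 0.17), Rsad2 (-0.37 ± 0.20) and Cmpk2 (-0.22 ± 0.18) were not called.

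Bst2, which encodes the virus-tethering protein tetherin, lay nearest 0, and it is described because of that value. It stood at 107, 86.4 and 89.6 CPM in MRC1+ and at 89.0, 92.9 and 107 CPM in CD11c+ libraries. The groups overlapped, the log2 fold change was -0.03 ± 0.11 (edgeR adjusted p = 0.9), and its sign turned to 0.03 under upper-quartile scaling and 0.10 under library totals. Its promoter nonetheless holds the overlapping cores shown above. Among the 19 genes matched to an ISRE core, 10 were called lower in MRC1+ TAMs, with a median log2 fold change of -0.57. Among the genes with a promoter and no core, 9 of 15 were called lower, with a median of -0.51. Among the 8 without a promoter sequence, 6 were called lower, with a median of -0.62. Oasl2, which was called lower, is among the 19, although its cores are likely those of another gene. Without that match it belongs with the genes that have no core, so the first and second of these counts are approximate.

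**Figure D2:**
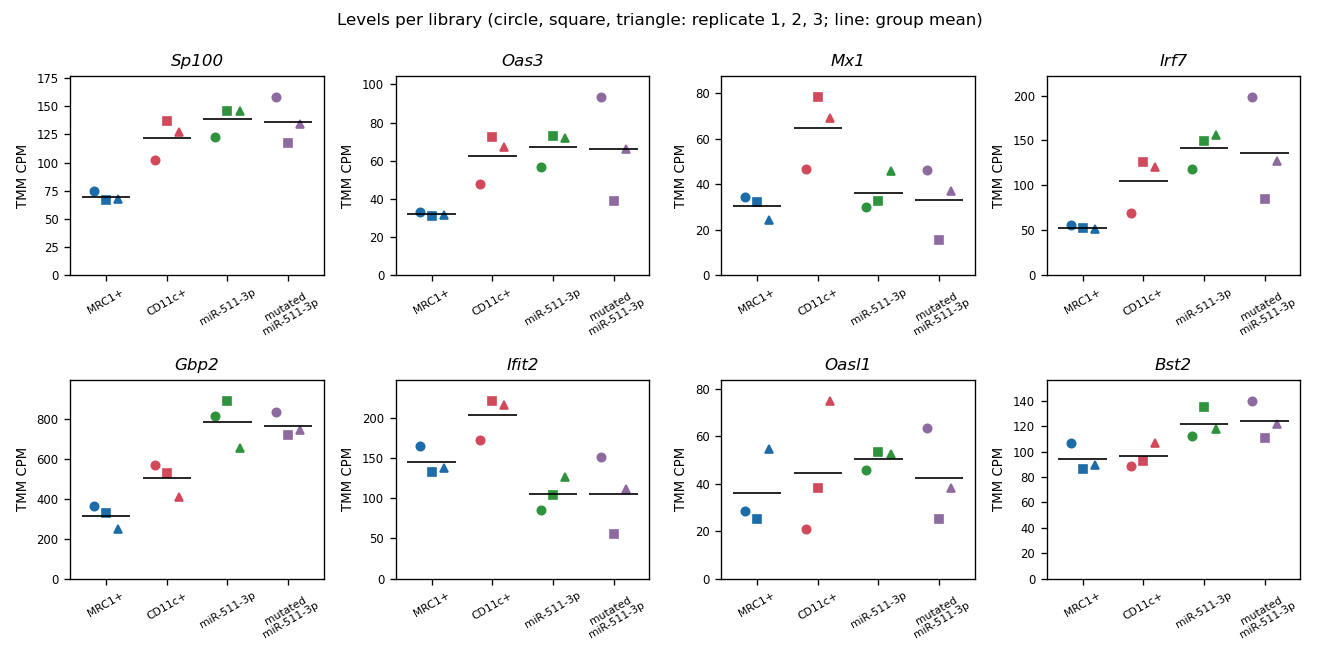
Level in CPM (vertical axes, from 0) of 8 genes in all 12 libraries, with circle, square and triangle for replicates 1, 2 and 3 and a line at each group mean. In Sp100, Oas3, Mx1, Irf7, Gbp2 and Ifit2 the MRC1+ libraries lie below the CD11c+ libraries, while in Oasl1 and Bst2 the groups overlap.

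Other genes of the interferon pathway were read from the same fit. Of 119 listed genes, 106 were matched and 95 tested. Of the 95, 46 were called lower and 2 higher in MRC1+ TAMs, with a median log2 fold change of -0.48. Over all 15622 genes tested, 9.71% were called lower and 6.91% higher, with a median of 0.01. Few interferon ligands could be read. Of 19 listed type I and III genes 10 were matched, and 2 of these, Ifnb1 and Ifnk, had enough reads to be tested. Neither was called. Reads aligned to several places, 15.5% to 20.1% in the sorted libraries, were not counted, so low counts do not show that ligands were absent. Ifnb1, which encodes interferon beta, stood at 4.99, 2.73 and 9.43 CPM in MRC1+ and at 3.54, 4.05 and 28.9 CPM in CD11c+ libraries. The third library was the highest in both groups, and the groups overlapped (log2 fold change -1.03 ± 0.81, edgeR adjusted p = 0.418). Ifng, the type II ligand, had 2 reads over the MRC1+ and 13 over the CD11c+ libraries and was not tested.

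Receptors and kinases were called lower in 4 of 8 tested genes and higher in none, against 9.71% and 6.91% of all genes tested. Jak2, the kinase of the interferon gamma receptor, stood at 116, 126 and 127 CPM in MRC1+ and at 246, 279 and 363 CPM in CD11c+ libraries (log2 fold change -1.27 ± 0.14, edgeR adjusted p = 0.000926). Ifngr1, the ligand-binding chain of that receptor, was lower by -0.79 ± 0.11 (edgeR adjusted p = 0.00242), and Tyk2 by -0.52 ± 0.10 (edgeR adjusted p = 0.0117). Both type I receptor chains, chosen after their values were seen, missed the threshold, with Ifnar1 at -0.39 ± 0.12 (edgeR adjusted p = 0.0553) and Ifnar2 at -0.41 ± 0.13 (edgeR adjusted p = 0.0643). Among the transcription factors outside the 42 genes, 6 of 8 were called lower. Irf4, which is also a dendritic cell factor, stood at 15.6, 17.1 and 16.9 CPM against 87.3, 92.8 and 136 CPM (-2.66 ± 0.18, edgeR adjusted p = 8.29e-05). Irf5, which drives inflammatory macrophage genes, was lower by -0.88 ± 0.11 (edgeR adjusted p = 0.00177), and Irf2 by -0.61 ± 0.09 (edgeR adjusted p = 0.00349).

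Sensors and adaptors upstream of interferon were called lower in 6 of 13 tested genes and higher in 1. The shares over all genes tested were 9.71% and 6.91%. Ifi205, an interferon-inducible gene of the DNA-sensing p200 family, was lower by -1.29 ± 0.21 (edgeR adjusted p = 0.00496) and the adaptor gene Myd88 by -0.70 ± 0.13 (edgeR adjusted p = 0.00805). Tlr7, the endosomal sensor of single-stranded RNA, went the other way, from 115, 118 and 114 CPM in CD11c+ to 196, 153 and 169 CPM in MRC1+ libraries (0.58 ± 0.10, edgeR adjusted p = 0.00785). Negative regulators were called lower in 3 of 7 tested genes and higher in 1. Samhd1, the dNTPase that limits nucleic acid sensing, was lower by -0.92 ± 0.12 (edgeR adjusted p = 0.00159) and the phosphatase gene Ptpn6 by -0.68 ± 0.12 (edgeR adjusted p = 0.00861). Nlrc3, a NOD-like receptor gene that dampens DNA sensing, was the higher one, at 1.13 ± 0.23 (edgeR adjusted p = 0.0145), with 4.34, 4.44 and 6.81 CPM in MRC1+ against 2.41, 2.39 and 2.27 CPM in CD11c+ libraries. Of 57 further interferon-induced genes, 27 were called lower and none higher, with a median of -0.49 against 0.01 over all genes tested. The 3 of lowest p were Ms4a4c (-1.99 ± 0.19, edgeR adjusted p = 0.000398), Phf11b (-1.24 ± 0.13, edgeR adjusted p = 0.000724) and Ifit1bl1 (-1.64 ± 0.18, edgeR adjusted p = 0.000824).

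Markers of other cell types moved with the same contrast, and their part in the result was not tested. Summed levels of 5 monocyte markers were 262 to 421 CPM in MRC1+ and 1457 to 1862 CPM in CD11c+ libraries. All 5 were called lower in MRC1+ TAMs, against 9.71% of all genes tested, and none was at 0 in any library. Summed levels of 9 conventional dendritic cell markers were 117 to 159.6 CPM against 1201 to 1470.4 CPM. Of these, 8 were called lower, and none of the 9 was at 0. That list holds Itgax, the gene of the sort marker CD11c, and Irf4, named above. Plasmacytoid dendritic cells are strong makers of type I interferon, and their defining marker Siglech was near 0, at 0.356, 0.757 and 0.407 CPM in MRC1+ and 1.07, 0.342 and 1.18 CPM in CD11c+ libraries. Of the 7 genes on that list, 0 to 2 were at 0 in a sorted library, and its summed level, 195 to 215 CPM in MRC1+ and 130.3 to 173 CPM in CD11c+ libraries, came mostly from Tcf4, which was higher in MRC1+ TAMs (0.53 ± 0.13, edgeR adjusted p = 0.0249).

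The remaining marker lists changed in both directions. Of the 8 macrophage markers, 2 were called higher in MRC1+ TAMs and none was called lower. The 2 were Adgre1, the F4/80 gene (0.80 ± 0.14, edgeR adjusted p = 0.00733), and Mertk, a receptor for dying cells (0.54 ± 0.13, edgeR adjusted p = 0.027). Endothelial markers summed to 29.4 to 38.5 CPM in MRC1+ and 77.7 to 119 CPM in CD11c+ libraries, with Pecam1 (-1.98) and Kdr (-1.07) lower and Cdh5 (1.26) higher. Epithelial and carcinoma markers summed to 61.3 to 90.8 CPM against 83.6 to 99.2 CPM, with Epcam (-3.72) and Cdh1 (-3.71) lower and Krt8 (1.19), Krt18 (1.13) and Krt19 (1.42) higher. T and NK cell markers summed to 64.8 to 131 CPM against 27.8 to 108 CPM, mostly Cd4. Klrb1c (-1.74) and Gzma (-2.10) were called lower. Of 3 tested neutrophil markers, 1, Csf3r (-0.62), was called lower, and of 3 tested B cell markers none was called. In a sorted library at most 1 of 5 endothelial, B cell or neutrophil markers was at 0, and none of the T and NK cell or epithelial markers was. Their part in the result was not tested either.

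Compared per kilobase of exon, Gbp2 had the highest level of the 42 genes in every group. Its level was 124 ± 23.8 CPM per kb (SD, n = 3) in MRC1+, 199 ± 32.8 in CD11c+ and 304 ± 23.8 in mutated TAMs. In the miR-511-3p group its 3 libraries stood at 324, 353 and 259 CPM per kb, with the widest SD of the 4 groups, 48.0. Bst2 came second in every group, at 105 ± 12.5 CPM per kb in MRC1+, 107 ± 10.6 in CD11c+, 135 ± 13.6 in miR-511-3p and 137 ± 16.3 in mutated TAMs. In MRC1+ TAMs these 2 neighbours in the order lay within 1 SD of each other, while in the other groups they were further apart than their SDs. Xaf1, an apoptosis-related gene, Mx2 and Ifi44 were the lowest 3 in every group. Ifi44 was last, at 1.71 ± 0.301 CPM per kb in MRC1+, 2.79 ± 0.361 in CD11c+, 1.34 ± 0.521 in miR-511-3p and 1.47 ± 0.726 in mutated TAMs. In both overexpression groups the means of Mx2 and Ifi44 differed by less than the SD of Ifi44.

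Within groups, most of the 42 genes shifted the same way in some libraries, though not in all. The first CD11c+ library held the lowest of the 3 CD11c+ values for 32 of the 42, against 40.3% of all genes tested, and the median deviation of the 42 from their group mean was -0.24 on the log2 scale. That library also had the highest summed level of 7 fibroblast markers, 1139 CPM against 258 and 315 CPM in the second and the third, and the lowest summed level of macrophage markers, 4376 CPM against 5733 and 6439 CPM. None of these fibroblast markers was at 0 in any library, their sum was 590.1 to 828 CPM in MRC1+ libraries, and none of the 7 was called between the sorted groups. Their part in the result was not tested. Among the MRC1+ libraries the spread was smaller, with median deviations of 0.09, 0.00 and -0.07. Single genes departed from these medians: Oasl1 deviated by -0.89 in the first CD11c+ library where Gbp2 deviated by 0.19, and by 0.69 in the third MRC1+ library where Gbp2 deviated by -0.32.

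The widest spread was in the group with mutated miR-511-3p. Its second library held the lowest of the 3 values for all 42 genes, against 31.0% of all genes tested, and its first held the highest for 37, against 34.3%. Their median deviations were -0.31 and 0.29. The ratio of the highest to the lowest library had a median of 1.51 over the 42 genes and 1.16 over 10157 genes at or above the lowest mean level of the 42. This ratio differed by family, with medians of 2.73 for IFIT, 2.68 for Mx, 2.42 for the ISG15 system and 1.96 for OAS, and of 1.36 for the PARP9-DTX3L group and 1.21 for the GTPases. Ifi44 had the widest ratio, 3.11, followed by Mx1 at 3.01, and Ifi35 had the narrowest, 1.13. The 57 further interferon-induced genes showed the same order, with 50 lowest in the second and 40 highest in the first mutated library. In the miR-511-3p group the first library was the lowest for 36 of the 42 genes, against 38.9% of all genes tested, and the median ratio was 1.21, against 1.13 over the 10157 genes.

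**Figure D3:**
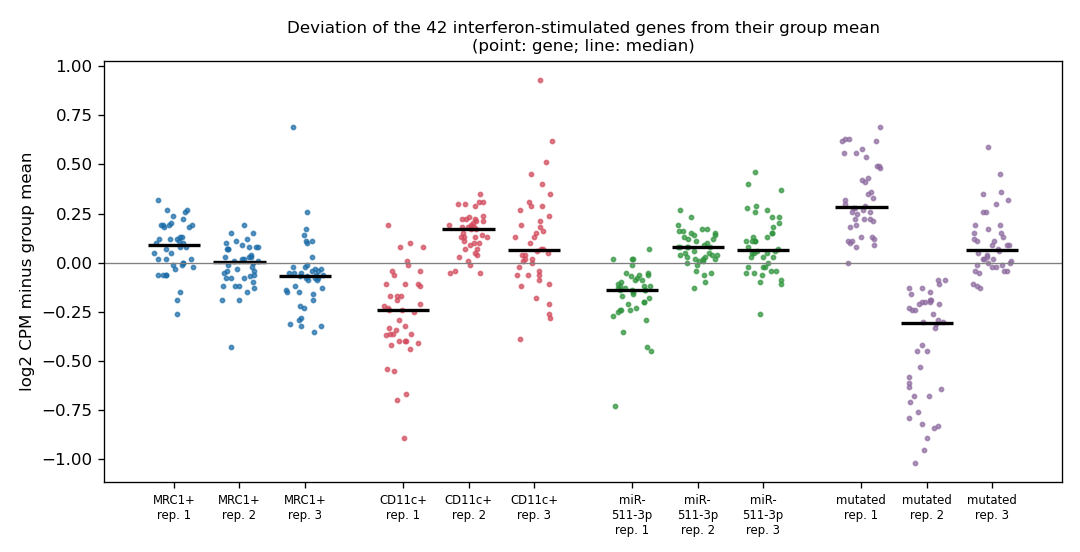
Deviation of each of the 42 genes from its group mean in log2 CPM (vertical axis), for the 12 libraries in 4 groups, with 1 point per gene and a line at the median. The second mutated library lies below 0 for all genes (median -0.31) and the first CD11c+ library for most (median -0.24), while the first mutated library lies highest (median 0.29).

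Marker levels of other cells in the mutated libraries did not fall in the order of the interferon-stimulated genes for every list. Endothelial markers summed to 91.1, 33.4 and 43.3 CPM in mutated replicates 1 to 3, with 1, 0 and 0 of 5 at 0, and were highest and lowest in the same libraries. B cell markers summed to 17.4, 8.29 and 13.7 CPM, with none of 5 at 0, also highest in the first and lowest in the second. Fibroblast markers summed to 179, 166 and 658 CPM and neutrophil markers to 77.2, 66.1 and 136 CPM, both lowest in the second but highest in the third, with 0 of 7 fibroblast and 2, 0 and 0 of 5 neutrophil markers at 0. Conventional dendritic cell markers summed to 347, 207 and 146 CPM, highest in the first but lowest in the third. Monocyte markers summed to 179, 319 and 396 CPM, lowest in the first. T and NK cell markers were also lowest in the first, at 16.3, 25.0 and 31.9 CPM. Epithelial and carcinoma markers summed to 11.8, 9.67 and 13.7 CPM, lowest in the second but highest in the third. Macrophage markers summed to 8231, 9135 and 8053 CPM, highest in the second. The defining marker Siglech was at 0.0374, 0 and 0.133 CPM. Ifnb1 stood at 1.65, 0.668 and 1.68 CPM in these libraries. The part of these cells in the spread was not tested.

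The second comparison asked whether miR-511-3p, against its mutated form, changes the level of these genes in TAMs. A microRNA represses mRNAs whose 3′ UTR pairs with its seed, and the mature strand is shown with the seed, bases 2 to 8, in capitals. It lies at chr2:14261051-14261072 on the plus strand of GRCm38.p6, as listed by RefSeq.
mmu-miR-511-3p: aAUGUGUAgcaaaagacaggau

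No interferon-stimulated gene was called in this comparison, where 0% of the 14054 genes tested were called by edgeR. At an unadjusted p under 0.05 there were 0 of the 42 genes and 343 of all genes (2.44%), and DESeq2 called 1 gene in all, which is none of the 42. The log2 fold changes (miR-511-3p minus mutated) ran from -0.13 to 0.33, 29 of them above and 13 below 0, with a median of 0.03 against 0.00 over all genes. Their standard errors ran from 0.08 to 0.45, so differences of the size seen between the sorted groups could not be resolved for the genes with the widest errors. In none of the 42 were the groups apart, which held for 6.24% of all genes tested (2.41% with miR-511-3p higher and 3.83% with it lower).

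Oas1g had the lowest p of the 42 genes. It stood at 24.2, 32.7 and 37.2 CPM in miR-511-3p replicates 1 to 3 and at 31.5, 20.8 and 22.7 CPM in mutated replicates 1 to 3. The first library of each group lay within the range of the other, and the log2 fold change was 0.33 ± 0.20 (unadjusted p = 0.133 and adjusted p = 1 in edgeR's quasi-likelihood fit across all genes). Samd9l, a restriction factor gene, stood at 216, 206 and 218 CPM against 225, 209 and 244 CPM. All 6 libraries were close together, at -0.08 ± 0.08 (edgeR adjusted p = 1). Oasl1, an OAS-like regulator of IRF7 translation, stood at 45.7, 53.2 and 52.3 CPM against 63.6, 25.3 and 38.3 CPM. The mutated libraries were both the highest and the lowest of the 6, at 0.25 ± 0.29 (edgeR adjusted p = 1). Oas2 stood at 59.3, 60.1 and 75.6 CPM against 65.3, 35.0 and 69.2 CPM. Only the second mutated library stood apart, at 0.21 ± 0.25 (edgeR adjusted p = 1).

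The direction of the whole set turned on the first and second mutated libraries. Without the first, 40 of the 42 genes had a log2 fold change above 0 and the median was 0.16. Without the second, 41 were below 0 and the median was -0.12, and no gene was called in either fit. Oasl1 went from 0.66 without the first to -0.01 without the second. Ifit1, Ifit2 and Ifit3, named after their values were seen, stood at -0.34, -0.31 and -0.32 without the second mutated library, and at 0.25, 0.33 and 0.33 without the first. Oas1g was above 0 in both fits, at 0.52 and 0.22.

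**Figure D4:**
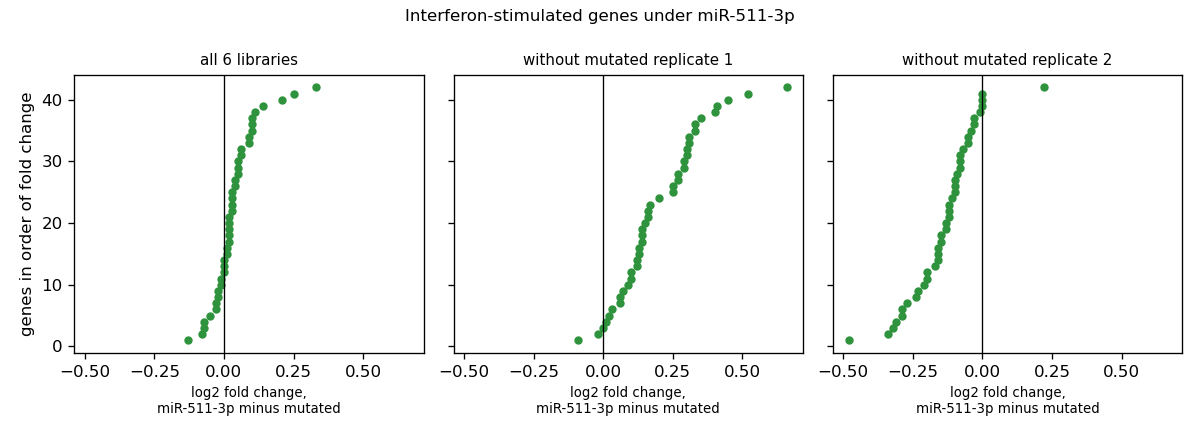
Log2 fold change of the 42 genes, miR-511-3p minus mutated (horizontal axis), in order of value (vertical axis, rank), with all 6 libraries and without mutated replicate 1 or 2. The median is 0.03 with all libraries, 0.16 without replicate 1 and -0.12 without replicate 2.

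A match to the seed (the 8-letter run TACACATA, or its first or last 7 letters, on the sense strand) was present in the longest annotated 3′ UTR of 8 of the 42 genes (19%), against 2374 of 11910 genes tested (19.9%). The 8 were Usp18, Oas1a, Oas1g, Ddx58, Eif2ak2, Adar, Gbp3 and Dtx3l. Their median log2 fold change was 0.02, and that of all tested genes with a match was -0.02. Oas1g, the gene with the highest fold change of the 42, held the 8-letter match.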

How the data were processed

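The deposited files hold, per the file headers and values, raw read counts for each Ensembl gene in 12 libraries. Tools listed in the submitters' processing notes are HTSeq, SAMtools 0.1.12a, TopHat 1.2.0 and Bowtie, with build mm9 (NCBIM37). No source used here gives the strand or the counting mode. Summary rows (5 per file) were removed and 31819 of 36439 genes were given a symbol. Each comparison was fitted on its 6 libraries in edgeR 4.0.16 (R 4.3.3): low-count filter, TMM scaling, quasi-likelihood test and Benjamini-Hochberg adjustment over all genes tested, called at 0.05. SE is the log2 fold change divided by the root of F. Levels are CPM with TMM factors from all 12 libraries. The fit was also run on simulated data, and the outcome is not reported here. DESeq2 1.42.0, other scalings and filters, left-out libraries and a replicate block were alternatives. Same-numbered libraries deviated together (r = 0.104, 0.337 and 0.25 in the sorted and 0.147, 0.258 and 0.462 in the overexpression groups). The replicate block therefore treated the numbers as pairs, from the data and not the labels, while the main fits used the group only. However, miR-511-3p replicate 1 was closer to mutated replicate 2 (r = 0.166). Promoters and the microRNA came from RefSeq, and exon lengths, overlaps and 3′ UTRs from GENCODE M21 (GRCm38), which differs from the counting annotation. The 42 genes and all lists were chosen with earlier results of these data known. By role, the 4 lowest-p members are given per library, and the 3 lowest-p genes of each pathway list are named.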

Additional observations from a re-analysis of the deposited data

How the results depend on the processing

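Between the sorted groups, no alternative called an interferon-stimulated gene higher in MRC1+ TAMs. The number called lower, 25 with the settings of the report, was 14 with library totals only, a scaling that moved the median of all genes to 0.14 and that of the 42 genes to -0.41. It was 21 with upper-quartile scaling, 25 with DESeq2's size factors, 31 without a filter, 25 with a stricter one, 32 with DESeq2 and 24 with all 12 libraries in 1 fit, and leaving out 1 library gave 6 to 36. With the replicate block it was 27, of which 22 were among the 25, and the block changed no call other than those given in the report; medians were -0.54 with and without it. All genes called were 2597, and 1270 to 4707 with 1 library left out. Signs turned for 4 genes that were not called in the report: Bst2 to 0.03 (upper quartile), 0.10 (totals), and 0.02, 0.00 and 0.07 without MRC1+ replicate 2, MRC1+ replicate 3 and CD11c+ replicate 3, Eif2ak2 to 0.02 (totals), and Oasl1 to 0.29 and Cmpk2 to 0.01 without CD11c+ replicate 3. With 1 library left out these ran from -0.11 to 0.07 (Bst2), -0.73 to 0.29 (Oasl1) and -0.40 to 0.01 (Cmpk2). For miR-511-3p no gene of the 42 was called under any alternative, the median was 0.06 with the replicate block and -0.12 to 0.16 with 1 library left out, and Oas2 (-0.05) and Oasl1 (-0.01) turned without mutated replicate 2, with leave-one-out values up to 0.38 and 0.66. The block, DESeq2 and the fit of all 12 libraries each called 1 gene in all there. The cause was not tested. Both depth and the 3 libraries a group limit what can be resolved, and the limits were not compared.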

Other observations

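Cxcl10, the gene of an interferon-induced chemokine, stood at 85.4, 98.0 and 132 CPM in MRC1+ replicates 1 to 3. In CD11c+ replicates 1 to 3 it stood at 114, 218 and 326 CPM. Like Cxcl11 and Cxcl9 below, it was chosen after its values were seen. The groups overlapped, and its log2 fold change of -1.06 ± 0.34 was not called (edgeR adjusted p = 0.0675). As with Ifnb1 (9.43 and 28.9 CPM) and Oasl1 (54.4 and 74.8 CPM), it was highest in the third library of both sorted groups, while the GTPase genes Gbp2 (246 and 408 CPM) and Gbp3 (58.0 and 95.5 CPM) were lowest there. Cxcl11, another chemokine gene, was lower in MRC1+ TAMs, at 2.44, 2.83 and 3.20 CPM against 6.74, 11.7 and 17.3 CPM (log2 fold change -2.06 ± 0.33, edgeR adjusted p = 0.00493). Cxcl9, a chemokine gene induced mainly by interferon gamma, stood at 166, 205 and 120.2 CPM against 299, 385 and 208 CPM, without overlap, and was not called (-0.86 ± 0.25, edgeR adjusted p = 0.0502).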
